A study of Homo sapiens with 6 samples.

Results

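The genes described here encode 10 transcription factors of the AP-1, SRF and immediate-early response: JUN, JUNB, JUND, FOS, FOSL1, FOSL2, SRF, KLF10, EGR1 and ATF3. They were chosen by name, with earlier results of these peak lists known, out of 19970 protein-coding genes placed on chromosomes 1 to 22 and X. All 10 were located by symbol in the RefSeq annotation of GRCh38.p14 (hg38). For each gene, every peak inside the gene or within 1 kb of either gene end was taken from the deposited peak lists, and a gene with such a peak is called marked. This gave 11 peaks, 4 of the 3507 peaks of untreated cells and 7 of the 2269 peaks of treated cells.

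The peaks come from chromatin immunoprecipitation and sequencing with BG4, an antibody that binds G-quadruplexes (G4s), the stacked structures that guanine-rich DNA strands can fold into. Cells of U2OS, a human bone osteosarcoma line, received no treatment (Ctrl) or 1,6-hexanediol (HD), an alcohol that dissolves many condensates. Per condition, the labels name 2 ChIP libraries and 1 input library, and a single peak list is given. Replicate error is therefore unknown for every value, no difference between conditions was tested, and intervals cover counting error only. Dose and time of hexanediol were not given in the sources used here. Every HD peak name carries the number of replicate 1, so that list may rest on 1 library. A peak list shows no expression, so the labelled cell type was not checked against marker genes.

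AP-1 is a dimer of basic leucine zipper proteins, one from the JUN family and one from the JUN, FOS or ATF families, that binds short palindromic sites in promoters and enhancers. Immediate-early genes are transcribed within minutes of a growth factor or stress signal without new protein synthesis. SRF binds CArG boxes, which lie in front of many of these genes and of actin cytoskeleton genes, and is switched on through MAP kinases with ternary complex factors, or through actin with MRTF cofactors. EGR1 and KLF10 are zinc finger factors that bind GC-rich sites, and ATF3 is a stress-induced factor of the ATF family.

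The stretches in front of JUN, FOSL2, JUND and SRF are printed first, because peaks of 1 or both lists lie on them. That of EGR1 is printed as an unmarked promoter that holds a G4 motif. Each is the 250 bases before the RefSeq start site (GRCh38.p14), 5′ to 3′ on the gene's own strand, and capitals mark runs of at least 3 G or at least 3 C, the parts from which a G4 can be built on this strand or on the opposite one.
JUN, chr1:58784048-58784297, minus strand: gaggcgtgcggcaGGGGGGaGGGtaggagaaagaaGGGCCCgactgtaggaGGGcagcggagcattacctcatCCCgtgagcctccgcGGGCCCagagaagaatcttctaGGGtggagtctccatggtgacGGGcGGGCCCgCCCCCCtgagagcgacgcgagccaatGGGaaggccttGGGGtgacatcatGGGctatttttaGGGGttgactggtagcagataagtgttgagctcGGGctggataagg
FOSL2, chr2:28392608-28392857, plus strand: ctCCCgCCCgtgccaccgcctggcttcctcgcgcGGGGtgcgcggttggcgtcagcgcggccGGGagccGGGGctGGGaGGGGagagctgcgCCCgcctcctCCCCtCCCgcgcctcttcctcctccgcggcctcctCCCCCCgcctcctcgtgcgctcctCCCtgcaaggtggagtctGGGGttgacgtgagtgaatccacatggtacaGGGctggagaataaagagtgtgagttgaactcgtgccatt
JUND, chr19:18281623-18281872, minus strand: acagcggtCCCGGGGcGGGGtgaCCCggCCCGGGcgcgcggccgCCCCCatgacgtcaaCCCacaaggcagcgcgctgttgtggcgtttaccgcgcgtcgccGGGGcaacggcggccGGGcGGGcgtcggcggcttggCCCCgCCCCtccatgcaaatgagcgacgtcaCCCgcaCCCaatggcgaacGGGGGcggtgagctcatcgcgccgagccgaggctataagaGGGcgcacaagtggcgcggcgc
SRF, chr6:43171019-43171268, plus strand: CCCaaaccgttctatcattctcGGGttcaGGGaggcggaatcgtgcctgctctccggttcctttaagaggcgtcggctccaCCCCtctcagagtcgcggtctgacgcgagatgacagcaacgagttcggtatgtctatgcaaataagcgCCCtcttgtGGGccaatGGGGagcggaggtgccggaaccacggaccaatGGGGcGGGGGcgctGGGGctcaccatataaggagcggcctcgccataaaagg
EGR1, chr5:138465229-138465478, plus strand: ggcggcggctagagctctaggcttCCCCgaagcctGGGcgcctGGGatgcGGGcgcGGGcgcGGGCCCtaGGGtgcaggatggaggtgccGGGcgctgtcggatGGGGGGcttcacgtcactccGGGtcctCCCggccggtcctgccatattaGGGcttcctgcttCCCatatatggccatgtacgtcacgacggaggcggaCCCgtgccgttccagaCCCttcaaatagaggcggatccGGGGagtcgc

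Peaks lay at 4 of the 10 genes in Ctrl and at 6 in HD. JUN, FOSL2, KLF10 and ATF3 were marked in both lists by overlapping peaks, JUND and SRF were marked in HD only, no gene was marked in Ctrl only, and JUNB, FOS, FOSL1 and EGR1 carried no peak. Over all 19970 coding genes, 13.2% were marked in Ctrl and 9.47% in HD. Marks in both lists were found at 6.19% of coding genes, in Ctrl only at 6.97% and in HD only at 3.28%. At 83.6% of coding genes neither list had a peak, against 4 of the 10. These are counts over 10 genes and were not tested. Short genes were marked less often: among coding genes under 5 kb, 6.55% were marked in Ctrl and 5.16% in HD, and 5 of the 10 genes (JUN, JUNB, JUND, FOS and EGR1) are of this size.

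Depth differed between the lists. Fragment numbers at the summits, and the mean number of fragments over any base of the genome, were worked back from the peak caller's values. That mean was 3.74 in Ctrl and 5.51 in HD. HD fragment numbers were therefore divided by 1.47 before they were set against Ctrl, and a height is given below as a multiple of the list's own mean. A summit at the genome-wide input level was called from 15 fragments in Ctrl, 4.01 times the mean, and from 20 fragments in HD, 3.63 times the mean.

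**Figure D1:**
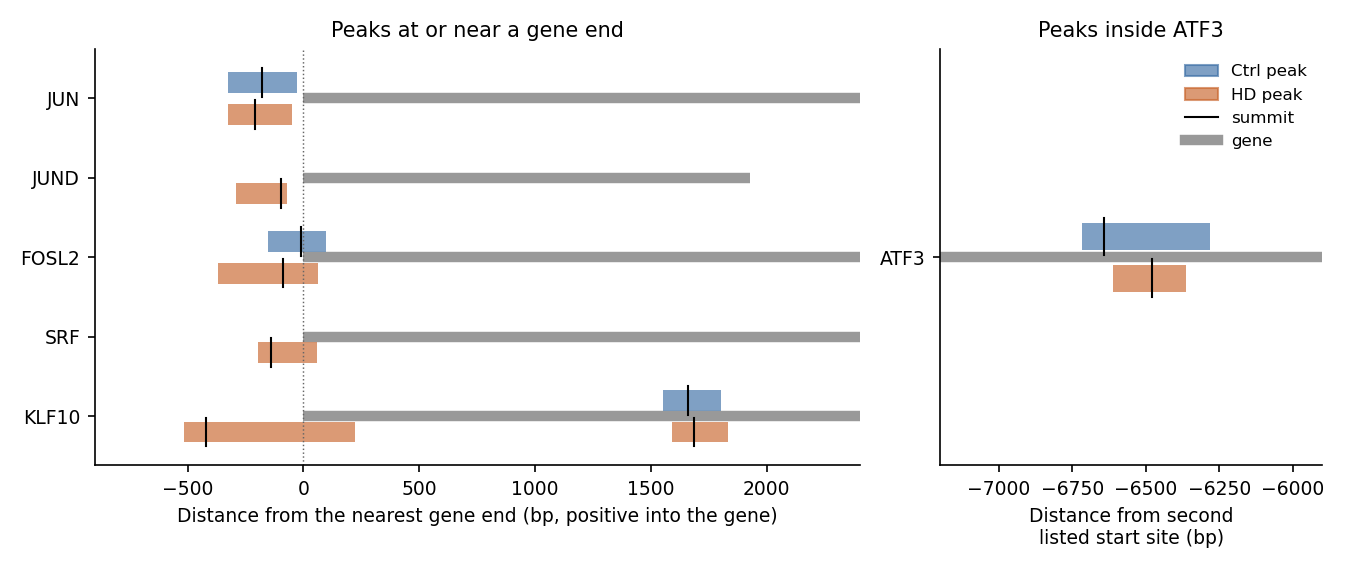
Peaks of the Ctrl list (blue) and the HD list (orange) at the 6 marked genes; the x axis is distance in bp from the nearest gene end, positive into the gene, and for ATF3 from its second listed start site. Black ticks are summits and grey bars the gene; the summits at JUN, JUND, FOSL2 and SRF lie within 210 bp outside the gene, while KLF10 and ATF3 have overlapping Ctrl and HD peaks inside the gene.

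Among the JUN family, JUN was marked in both lists, JUND in HD only and JUNB in neither. JUN, the founding AP-1 subunit (gene ID 3725, chromosome 1, 58780791 to 58784047), had a Ctrl peak at chr1:58784074-58784373 and an HD peak at chr1:58784096-58784374. Both lie wholly in front of the gene, on the JUN stretch printed above and beyond its far end. The Ctrl summit was 177 bp and the HD summit 210 bp before the start site, 33 bp apart, and the peaks shared 278 bp. The same window holds an end of JUN-DT, the divergent transcript of JUN, so the peak cannot be given to one of the 2 genes.

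The JUN summit held 26 fragments in Ctrl (95% Poisson interval 17.0 to 38.1) and 33 in HD (22.7 to 46.3). These were 6.96 and 5.99 times the list means. The depth-scaled HD to Ctrl ratio was 0.861 (exact conditional interval 0.499 to 1.499), an interval that holds 1. Within its own list the JUN peak was at the 41.8th percentile of the authors' fold in Ctrl and at the 83.5th in HD. The input expectation at JUN was 1.54 times the genome-wide one in Ctrl and 1.00 times in HD. That HD value is the genome-wide expectation itself, as at 287 HD peaks, and not a separate local estimate. On the ratio to input the order of the 2 conditions turned (1.33).

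JUND, a JUN protein with steady expression in many cells (gene ID 3727, chromosome 19, 18279694 to 18281622), had 1 peak, in HD, at chr19:18281691-18281913. It lay in front of the gene with its summit 95 bp before the start site. The summit held 24 fragments (15.4 to 35.7), 4.35 times the HD mean, at the 21.4th percentile of fold in its list, and 23 were needed for a call at that input level. At the Ctrl depth the same height would give 16.3 fragments (10.4 to 24.2), and 17, a number inside that interval, would be needed for a Ctrl call if input stood equally high over its genome-wide level there. A JUND signal of equal height may therefore fall on either side of the Ctrl threshold by counting error, and the nearest Ctrl peak was 77.3 kb from the HD peak. The ends of MIR3188 and LOC124904652 lie within 1 kb of the JUND peak.

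JUNB, a JUN protein that can hold back JUN activity (gene ID 3726, chromosome 19, 12791486 to 12793315), had no peak within 147 kb in Ctrl or 97.6 kb in HD. Where no peak was called, no fragment number was at hand, so an unmarked gene is one without a call and not one shown to lack signal.

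Of the FOS family, only FOSL2 was marked under the 1 kb rule, and its HD peak had the highest summit of the 11 peaks. FOSL2 encodes FRA2, a FOS protein that dimerises with JUN proteins (gene ID 2355, chromosome 2, 28392858 to 28417317). Its Ctrl peak at chr2:28392704-28392956 and its HD peak at chr2:28392488-28392922 both crossed the start site and shared 219 bp. The HD peak was the wider one, with 435 bp against 253 bp, and covered the whole 300-base promoter window. Summits were 11 bp (Ctrl) and 86 bp (HD) before the start site. FOSL2-AS1, an antisense gene at FOSL2, is marked by the same peaks under the 1 kb rule, so they cannot be given to FOSL2 alone.

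FOSL2 had 26 fragments in Ctrl (17.0 to 38.1) and 46 in HD (33.7 to 61.4), or 6.96 and 8.35 times the means. The scaled ratio was 1.20 (0.726 to 2.02), the highest of the 4 genes marked in both lists, and its interval still holds 1. Without scaling, the ratio was 1.77 with an interval above 1 (1.07 to 2.98), so whether the interval held 1 depended on the depth scaling. The cause of the higher HD number was not tested. Ranked by fold within its own list, the peak stood at percentile 95.02 in HD and 61.4 in Ctrl.

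FOS, the partner of JUN in the classic AP-1 dimer (gene ID 2353, chromosome 14, 75278828 to 75282230), had its nearest peaks 276 kb away in both lists, at EIF2B2. FOSL1, which encodes FRA1 (gene ID 8061, chromosome 11, 65892049 to 65900545), had an HD peak of 28 fragments 1.17 kb from its end, just outside the rule and within 1 kb of CCDC85B. Its nearest Ctrl peak, of 26 fragments at FIBP, was 3.34 kb away. With a window of 2 kb FOSL1 counted as marked in HD, which made 7 of 10 genes. FOS and FOSL1 thus differ in distance: one lies far from any peak and the other next to peaks of neighbouring genes.

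ATF3 (gene ID 467, chromosome 1, 212565407 to 212620777) was marked inside the gene, far from both its ends. Its Ctrl peak at chr1:212608301-212608737 held the whole HD peak at chr1:212608405-212608656. The summits were 163 bp apart, more than at the other 3 shared genes, and 92.6% of all 1304 overlapping pairs had a gap no larger than this. The median gap over all pairs was 41.5 bp. The summits lay 6643 bp (Ctrl) and 6480 bp (HD) before the second listed start site of ATF3 and 12402 and 12239 bp from the upper gene end. Only listed start sites were used, so whether a further ATF3 start site lies at these peaks was not checked.

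ATF3 had 23 fragments in Ctrl (14.6 to 34.5) and 31 in HD (21.1 to 44.0), 6.15 and 5.62 times the means, the lowest pair among the 4 shared genes. The scaled ratio was 0.914 (0.516 to 1.64). Its input expectation was 1.01 times the genome-wide one in Ctrl and 1.27 times in HD, and the ratio over input was 0.729. The peak stood at the 75.3rd percentile of fold in Ctrl and at the 43.1st in HD, the reverse of the order at JUN and FOSL2.

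SRF (gene ID 6722, chromosome 6, 43171269 to 43181506) was marked in HD only. Its peak at chr6:43171075-43171328 crossed the outer start site, with the summit 141 bp before it. The summit held 29 fragments (19.4 to 41.6), 5.26 times the mean, at the 39.4th percentile of fold. At the Ctrl depth this height would give 19.7 fragments (13.2 to 28.2), and 17 would have been needed for a call, a number inside that interval. The nearest Ctrl peak was 198 kb from the HD peak. An SRF signal of equal height may therefore fall on either side of the Ctrl threshold by counting error.

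KLF10, first described as a gene induced early by TGF-beta (gene ID 7071, chromosome 8, 102648784 to 102655725), was the single gene of the 10 with 2 peaks in one list. The shared peaks, chr8:102653921-102654173 in Ctrl and chr8:102653893-102654135 in HD, lay inside the gene 1659 bp (Ctrl) and 1686 bp (HD) from its upper end, with summits 27 bp apart. They held 28 fragments in Ctrl (18.6 to 40.5) and 42 in HD (30.3 to 56.8), which were 7.49 and 7.62 times the means. The scaled ratio of 1.02 (0.616 to 1.70) was the closest to 1 of the 4. A second HD peak, chr8:102655501-102656241, crossed the upper end of KLF10 and was the widest of the 11 peaks at 741 bp. No start site was listed for KLF10, so whether any of these peaks lies at one was not checked.

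The second KLF10 peak had 30 fragments (20.2 to 42.8), 5.44 times the mean, and no Ctrl peak overlapped it. The nearest Ctrl peak was the one inside KLF10, 1.33 kb away. At the Ctrl depth its height would give 20.3 fragments (13.7 to 29.0) against 17 needed, so the position is similar to that of SRF. An end of LOC101927245 lies within 1 kb of this peak.

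EGR1, the zinc finger factor that is induced by serum through SRF (gene ID 1958, chromosome 5, 138465479 to 138469303), had no peak within 133 kb in Ctrl or 73.9 kb in HD.

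**Figure D2:**
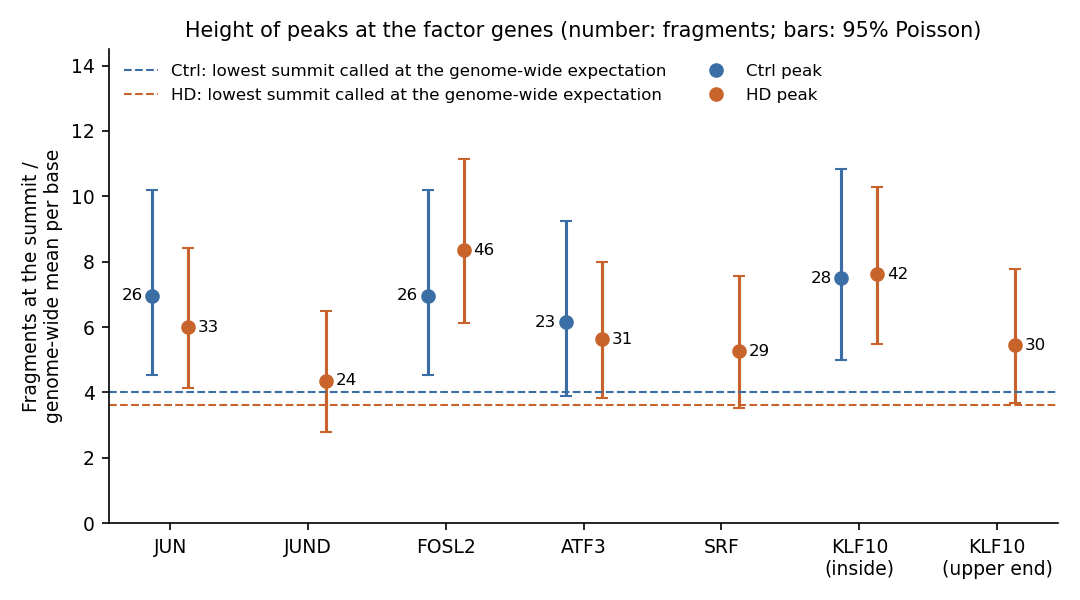
Height of each peak at the marked genes, as fragments at the summit divided by the list's mean number of fragments per base; points are single peaks, numbers are fragments, bars are 95% Poisson intervals and dashed lines are the lowest summit called at the genome-wide expectation. The HD-only peaks at JUND, SRF and the upper end of KLF10 stand at 4.35 to 5.44 times the mean, lower than every peak shared by both lists. A shared peak also had to reach the Ctrl limit, the upper dashed line, so the groups were formed partly by height.

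Most peaks at these genes were at or below the median height of their list. Those in Ctrl held 23 to 28 fragments, where the median Ctrl peak held 28, and those in HD held 24 to 46, where the median HD peak held 38. The 3 HD peaks with no Ctrl partner were among the lower ones of their list, at the 3.11th percentile of fragments for JUND, the 17.0th for SRF and the 20.7th for the upper end of KLF10. Peaks without a partner had only the HD limit to reach, so this grouping was partly by height. The shared HD peaks of ATF3 (25.4th) and JUN (33.4th) were also in the lower part of the list, and those of KLF10 (63.6th) and FOSL2 (71.6th) in the upper part. In the authors' deposited table, JUND was close to the threshold with a −log10 q of 1.98, where the lowest value kept in the HD list was 1.30, and SRF had 3.65.

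At the 4 shared genes the scaled ratio ran from 0.861 to 1.20, with a median of 0.966, and was under 1 at 2 of them. All 4 intervals hold 1. Over the 1294 overlapping pairs with recovered numbers in both lists the median was 0.899, and the 5th and 95th percentiles were 0.654 and 1.20. FOSL2, at the 94.9th percentile of these ratios, was near the upper edge of that range, KLF10 was at the 76.5th, ATF3 at the 53.9th and JUN at the 41.6th. Numbers at each summit were read at the peak's own highest point, which differs between the lists by the summit gaps given above.

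**Figure D3:**
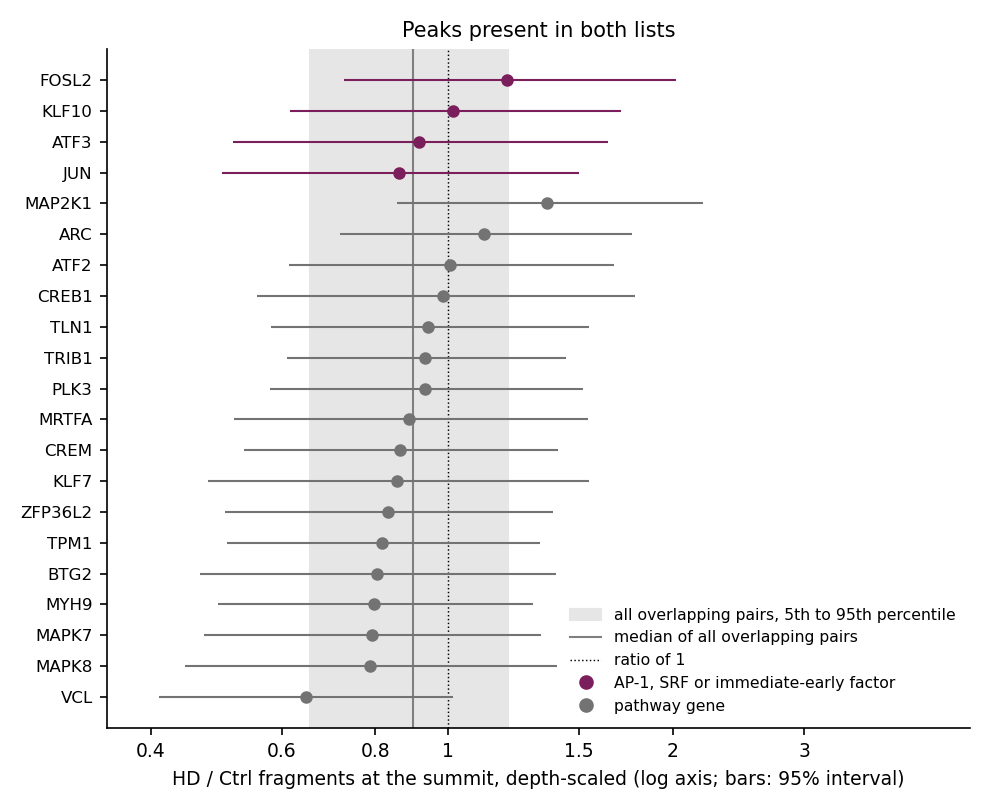
Depth-scaled HD to Ctrl ratio of fragments at the summit (log axis, 95% intervals) for the 4 shared genes and for 17 shared genes of the wider pathway lists. The grey band runs from the 5th to the 95th percentile of 1294 overlapping pairs and the grey line is their median of 0.899; every interval drawn holds 1.

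The genes with the most similar pair of fragment numbers were sought among 1236 other coding genes marked in both lists, by Euclidean distance of log2 fragments over the 2 lists. Identical pairs were common at these low numbers. JUN shared its pair of 26 and 33 with 5 genes, among them DCUN1D4, EFR3B and MATN1, and ATF3 its pair of 23 and 31 with 5, among them FIZ1, NMRK1 and OSTF1. KLF10 shared its pair of 28 and 42 with ITPR1, OXSR1 and SEC22C, and FOSL2 its pair of 26 and 46 with GPATCH8 and LAPTM4A. SEC14L5, with 26 and 45 fragments, was next to FOSL2 at a distance of 0.03.

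RefSeq promoter windows of 300 bases, 250 before and 50 after the start site (GRCh38.p14), were matched for 8 of the 10 genes, with 2 windows each for SRF and ATF3. Peaks touched 4 of these 10 windows: those of JUN and FOSL2 in both lists, and those of JUND and the outer start of SRF in HD. Over all 34961 windows, Ctrl peaks touched 6.65% and HD peaks 4.79%. A G4 motif was searched as 4 runs of at least 3 G with loops of 1 to 7 bases, on both strands. It was found in 25.04% of all windows, in 38.9% of those touched by a Ctrl peak and in 38.4% of those touched by an HD peak.

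The G4 motif and the peaks did not go together gene by gene. FOSL2 held the motif 188 to 168 bases before its start, inside the HD peak and overlapping none of the Ctrl peak, with summits 82 bp (HD) and 157 bp (Ctrl) from it. This is the row of G runs nearest the 5′ end of the printed FOSL2 stretch. EGR1 held it 215 to 192 bases before its start and had no peak. SRF held it before its second, inner start site, which no peak touched, and not in the window under its HD peak. JUN and JUND had none, yet were touched. With loops up to 12 bases the motif was also found in the JUN window (82 to 43 bases before the start), in that of JUNB on the opposite strand, and before the second start of ATF3, and then in 37.9% of all windows.

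GC content and the G4Hunter score, which rises with the length and one-sidedness of G runs, likewise did not separate the marked from the unmarked windows of these genes. The 4 touched windows had 59.3% (SRF), 62.0% (JUN), 68.7% (FOSL2) and 77.0% GC (JUND). Among the untouched, JUNB had 71.0%, the inner start of SRF 70.3%, EGR1 69.3% and FOS 64.7%, so the groups overlap, while both ATF3 windows were lower (48.0% and 46.3%). The highest G4Hunter score over 25 bases was 2.08 at SRF, 1.92 at JUN and FOSL2 and 1.36 at JUND. It was 2.08 at JUNB, 1.48 at FOS and 1.40 at EGR1. Over all windows the median GC content was 58.7% and the median score 1.52, against 68.7% and 1.84 in windows touched by a Ctrl peak and the same 2 medians in those touched by an HD peak.

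**Figure D4:**
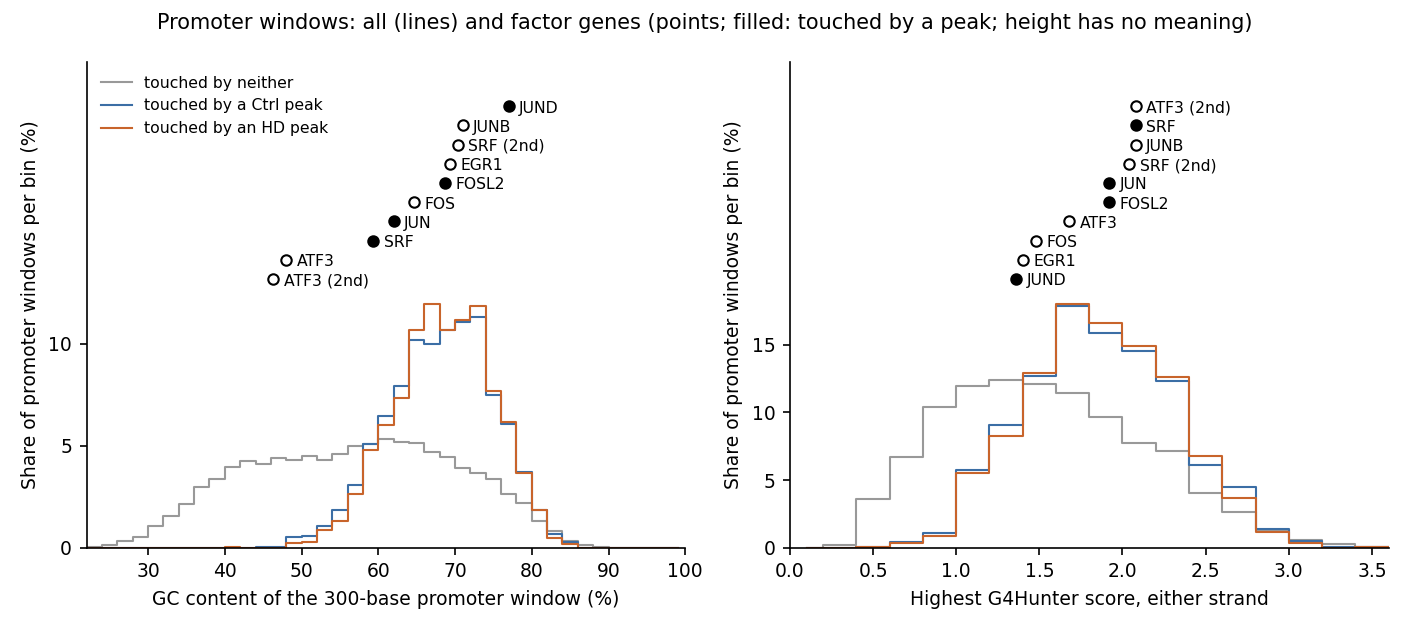
GC content (left) and highest G4Hunter score on either strand (right) of 300-base promoter windows; lines are the share of windows per bin by whether a peak touches them, and points are the 10 windows of 8 factor genes, filled where a peak touches. JUND has the highest GC content (77.0%) and the lowest score (1.36) of the 10 windows, and filled and open points overlap on both axes.

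The binding sites of the factors themselves were also searched on both strands of these windows. Sequence outside the windows was not searched, and KLF10 and FOSL1 had no window. TGACTCA, the classic AP-1 site, was found at FOSL2, 4 to 10 bases after the start site and inside the Ctrl and HD peaks, and in 4.92% of all windows. TGACATCA, the variant AP-1 site known from the JUN promoter, lay 67 to 60 bases before the JUN start, inside both peaks, and also at the outer start of ATF3, with 2.61% of all windows holding it. TGACGTCA, the site of CREB and ATF factors, lay 200 to 193 bases before the JUND start and inside its HD peak, and in 1.85% of windows. In windows touched by an HD peak the shares were 2.09% for TGACTCA, 0.837% for TGACATCA and 4.12% for TGACGTCA. The 3 sequences do not overlap one another where they were found.

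CArG boxes, the sites of SRF, were found 2 times in the window of SRF itself (30 to 21 and 10 to 1 bases before its outer start) and 2 times at EGR1 (105 to 96 and 83 to 74 bases before the start). At least 1 CArG box was in 1.30% of all windows, and 2 or more in 11 of 34961 (0.0315%), of which SRF and EGR1 are 2. Both SRF boxes lie inside its HD peak, 111 and 131 bp from the summit, whereas EGR1 has no peak. GCGGGGGCG, a site of EGR factors, was found at SRF alone among the 8 genes with a window, 49 to 41 bases before the start, and in 5.09% of windows. It overlaps a match of GGGCGG, the GC box bound by SP and KLF factors. GGGCGG occurred 6 times at JUND, where 2.87% of all windows held 6 or more and 45.0% held at least 1. The CCAAT box, searched for comparison, was in 34.6% of windows and in those of JUN, JUNB and JUND, 2 times at the outer start of SRF and at the outer start of ATF3. Windows touched by an HD peak had other shares, with 1.08% holding a CArG box and 10.5% GCGGGGGCG. GGGCGG was in 87.4% of them, 6 or more times in 8.49%, and CCAAT in 53.1%.

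Wider lists of 95 genes showed how far peaks extended along the pathway. They were drawn up with earlier results on these peaks known, and their counts are descriptions. In all, 26 (27.4%) were marked in Ctrl and 19 (20%) in HD, against 13.2% and 9.47% of coding genes. Both lists marked 18 of them, Ctrl alone marked 8 and HD alone marked 1. Over all coding genes these shares were 6.19%, 6.97% and 3.28%. The 10 factor genes had the opposite split of single-list genes, with 0 in Ctrl only and 2 in HD only, and whether the splits differ was not tested.

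**Figure D5:**
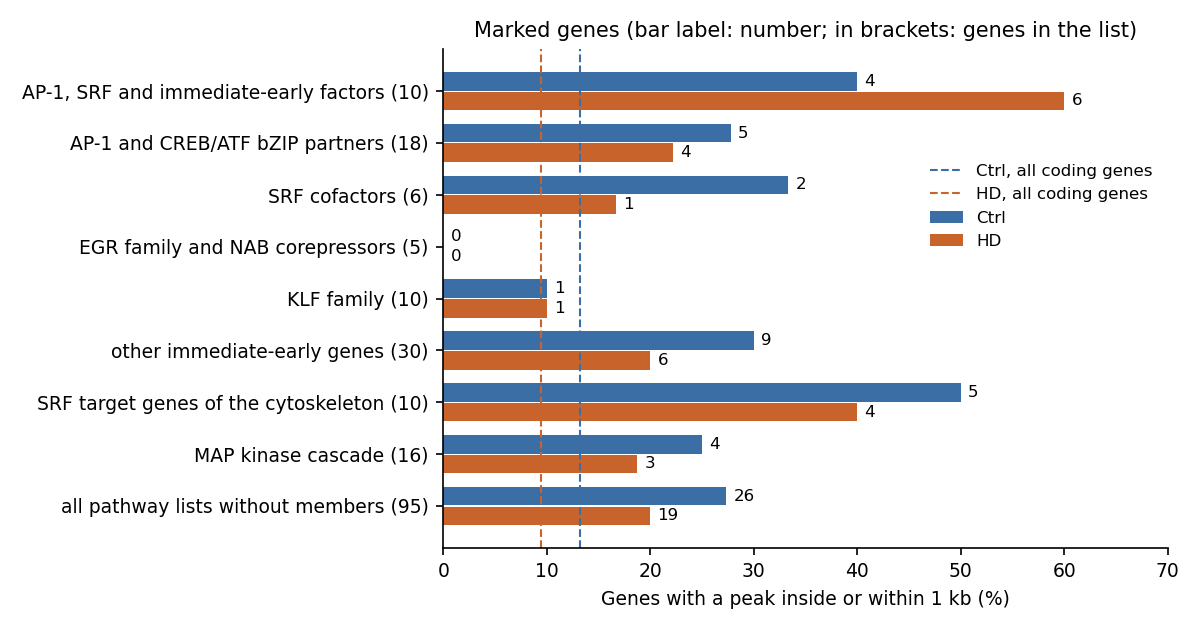
Share of genes with a peak inside or within 1 kb, by list (numbers of marked genes beside the bars, list sizes in brackets), for Ctrl and HD; dashed lines are all coding genes (13.2% and 9.47%). In 5 of the 7 pathway lists more genes were marked in Ctrl than in HD, while the 10 factor genes had 4 in Ctrl and 6 in HD.

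Among basic leucine zipper partners of AP-1, 5 of 18 were marked in Ctrl and 4 in HD. ATF2, a JUN partner that stress kinases phosphorylate, had 29 and 43 fragments in Ctrl and HD (the Ctrl number being the closer of 2 that matched), and CREB1, the cAMP response factor, had 22 and 32. CREM, its relative, had 33 and 42 fragments in a peak also at the end of CUL2, with summits 5 bp apart. MAFK, a small MAF protein, was marked at different places, with 28 Ctrl fragments at its lower end and 35 HD fragments 6.62 kb away inside the gene. MAFG, another small MAF protein, was marked in Ctrl only (27 fragments). FOSB, BATF and JDP2 were among the 13 with no peak.

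Among SRF cofactors, MRTFA, the actin-regulated coactivator, was marked in both lists with 26 and 34 fragments, and ELK1, a ternary complex factor, in Ctrl only with 18. The other 4, MRTFB, MYOCD, ELK3 and ELK4, had no peak. None of the other 5 EGR and NAB genes was marked, and in the KLF family KLF7 alone of 10 was, with 23 and 29 fragments.

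Of 30 other immediate-early genes, 9 were marked in Ctrl and 6 in HD. BTG2, an antiproliferative gene, had 27 and 32 fragments (the Ctrl number again the closer of 2), ZFP36L2, an mRNA decay factor, had 31 and 38, and PLK3, a stress-induced kinase, had 32 and 44 in its shared peak. ARC had 34 and 56 and TRIB1, a pseudokinase, had 40 and 55. ZFP36L1 (33 fragments), NR4A1 (23), TNFAIP3 (18) and SGK1 (21) were marked in Ctrl only and IER2 (26) in HD only. DUSP1, IER3, CCN1 and NR4A2 were among the 20 with no peak.

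Cytoskeletal SRF targets were marked at 5 of 10 genes in Ctrl and 4 in HD. VCL, the adhesion protein vinculin, had 43 and 41 fragments, a scaled ratio of 0.647 (0.411 to 1.02) and the lowest among the shared genes. In their shared peaks TPM1 had 34 and 41, MYH9 34 and 40 and TLN1 31 and 43. Ends of other genes lie within 1 kb of these peaks: TPM1-AS at TPM1, MYH9-DT at MYH9, and CREB3 and MIR6853 at TLN1. Several further pathway peaks also lie at the end of another gene, among them those of ELK1 (UXT) and MAPK7 (B9D1). ACTB, beta-actin, was marked in Ctrl only with 45 fragments. In the MAP kinase cascade, 4 of 16 genes were marked in Ctrl and 3 in HD. MAP2K1 (MEK1) had 29 and 58 fragments and the highest scaled ratio of the shared genes (1.36, 0.854 to 2.197), in a peak also at the end of TIPIN. MAPK8 (JNK1) had 25 and 29 and MAPK7 30 and 35, while MAPK14 (p38) was marked in Ctrl only with 24.

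The 8 Ctrl-only pathway genes were set against the HD detection limit in the same way as JUND and SRF against that of Ctrl. At the HD depth, equal height would have given at least the number of fragments needed for an HD call at all 8. This outcome was set in advance and says nothing about these genes. Their peaks had passed the Ctrl limit, which stands higher over its list's mean than the HD limit (4.01 against 3.63 times at the genome-wide input level). The lower bound of the interval also reached it at 2, MAFG and NR4A1. For MAFG, the scaled number was 39.8 fragments (26.2 to 57.9) where 24 were needed, and for NR4A1 33.9 (21.5 to 50.9) where 20 were needed. These intervals cover the counting error of the Ctrl number only and leave out that of an HD count. The 2 genes are therefore not shown to lie beyond counting error. Over the 17 pathway genes with overlapping peaks the scaled ratio had a median of 0.863, from 0.647 to 1.36, and was under 1 at 14. The median over all overlapping pairs was 0.899, so most pairs of the whole lists were under 1 as well.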

How the data were processed

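BG4 ChIP-seq was done on U2OS cells, 6 libraries in all, fixed with formaldehyde at 1% for 10 min per the labels' protocols. Per the submitters' processing notes, the tools were MACS2 2.2.7.1, Bowtie2 2.5.0, SAMtools and FastQC 0.11.9, with the build hg38. Their settings, and whether libraries were pooled, were not given in the sources used here. Each list, as deposited by the authors, gives per peak a summit offset, a browser score, a fold (a ratio over local background), −log10 p and −log10 q. These rank peaks only within a list.

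Fragment numbers were recovered from fold and p, using fold = (pileup + 1) / (expectation + 1) and p as the Poisson tail of a pileup that is a whole number of fragments times a scale (0.927 in Ctrl, 0.715 in HD). They matched within 0.01 for 3488 of 3507 Ctrl and 2253 of 2269 HD peaks and for all peaks at the genes described. More than 1 number matched for 4.70% of Ctrl and 3.83% of HD peaks, where the closest was taken. This touched none of the 11 peaks at the 10 genes, but the Ctrl numbers of ATF2 and BTG2 are uncertain for this reason. The method was checked on data simulated with the same formula, so that check cannot show that the formula holds for the deposited values. Depth is the genome-wide expectation divided by the scale. The number needed for a call is the lowest that reaches the list's lowest −log10 p, with input at the same multiple of its genome-wide level. Intervals on fragments are exact Poisson at 95%, and those on ratios conditional binomial. Amplified reads are not independent molecules.

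The genes and lists were chosen with earlier results of these data known. Fragment recovery, G4Hunter and the needed number were added with the data in view. Named were all 10 genes, every pathway gene with a peak and the 3 nearest by fragments, and unmarked pathway genes are examples. Some genes of the MAP kinase cascade are not reported here and were left out of its list and counts. Python 3.11.15 with SciPy 1.17.1 was used.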

Additional observations from a re-analysis of the deposited data

How the results depend on the processing

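The counts of marked genes were recomputed under 7 settings: windows of 500 bp and 2 kb, −log10 q of at least 3, lists of equal length (2269 peaks), 1 gene per peak, gene ends only and summits in place of peak edges. With gene ends only, KLF10 and ATF3 dropped out in Ctrl, which left 2 genes marked in Ctrl and 2 shared, and ATF3 in HD, which left 5. FOSL1 joined in HD at 2 kb (7 genes) and JUND left at −log10 q of at least 3 (5 genes), with 4 in Ctrl in both. Under the other settings the Ctrl and HD counts were 4 and 6 with the same genes, and all 4 shared genes stayed shared at 50% overlap of the shorter peak and at summits within 200 bp. With lists of equal length, 9.27% of coding genes were marked in Ctrl and 9.47% in HD. With gene ends only these shares were 10.8% and 8.05%, and with 2 kb 13.7% and 9.81%. At −log10 q of at least 3 they were 12% and 8.22%, and at 500 bp 12.8% and 9.1%. With 1 gene per peak they were 8.86% and 6.37%, and by summits 13.1% and 9.4%. A G4 motif was in a window of 3 of the 8 genes with loops to 7, of 6 with loops to 12 and of all 8 with runs of 2 G, a motif that 81.6% of all windows held. Without depth scaling the HD to Ctrl ratio was 1.27 at JUN, 1.77 at FOSL2, 1.5 at KLF10 and 1.35 at ATF3, and over the input expectation it was 1.33, 1.29, 1.13 and 0.729, so the side of 1 depended on the scaling at JUN and ATF3. No paired analysis was possible because the deposited lists hold 1 value per condition and none per library, and for the same reason no replicate was left out.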
